A study of Mus musculus with 12 samples.

Results

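A set of germline genes listed as normally silenced by DNA methylation was examined in the cortex of mice lacking Dnmt1 or Dnmt3a in the Olig1 lineage. DNA methylation was not measured here, and 5 of the genes had a control mean of at least 1 FPKM. The set held 36 genes, taken by symbol from a table of 23548 rows, and each symbol matched 1 row. No level filter was applied, so all 36 genes entered every description. Tex101 and Nxf3 were added to the set for their higher values in the Dnmt1 CKO libraries, so those values chose them, and their values in that comparison and in the difference between the lines are given as a description with no test. Polyadenylated RNA had been sequenced in 12 libraries, 3 mice in each of 4 groups, to ask which cortical transcripts change when either methyltransferase is lost. Dnmt1 CKO mice were Olig1cre/+;Dnmt1flox/flox and their littermate controls Olig1+/+;Dnmt1flox/flox, and Dnmt3a CKO mice were Olig1cre/+;Dnmt3aflox/flox with littermate controls of genotype Olig1+/+;Dnmt3aflox/flox. All mice were on a C57BL/6 background and cortices were taken at postnatal day 16. Controls of both lines therefore carried the floxed alleles without cre, and every CKO mouse had 1 Olig1 allele occupied by cre. Cre was driven from Olig1, a transcription factor gene of the oligodendrocyte lineage, while RNA came from whole cortex, which also holds neurons and many other cells outside that lineage. In such bulk tissue, more cells expressing a gene and more RNA per cell cannot be told apart.

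Dnmt1 copies methylation onto the new strand after DNA replication, and Dnmt3a adds methylation to sites that lack it. Many genes of meiosis, of the piRNA pathway that silences transposons in germ cells, and of sperm maturation have CpG-rich promoters that are methylated in body tissues, and loss of that methylation is a known route to their transcription outside the germline. Repressors such as E2F6 and the MGA complex, which bind short motifs in these promoters, recruit silencing to several of the same genes.

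The levels were FPKM values, fragments scaled to transcript length and to the fragments mapped, and they summed to 342274 to 417856 per library. A difference is the mean log2(FPKM + 0.1) of the CKO libraries minus that of the controls, so it understates the change of a gene near 0. The added 0.1 also narrows the spread among values near 0, so the standard errors and p-values of such genes depend on it. Tests were by limma over the 20653 rows above 0 in at least 1 library, and a gene was called at a Benjamini-Hochberg false discovery rate of 10%. Dnmt1 itself read 9.78 to 10.6 FPKM in its controls and 7.26 to 9.11 FPKM in the Dnmt1 CKO libraries. Dnmt3a read 13.6 to 15.4 FPKM in Dnmt3a CKO, against 31.1 and 28.7 FPKM in 2 controls and 16.9 FPKM in the library labelled Dnmt3a control replicate 2, which goes against its label. Olig1, the gene that holds cre, read 49.8 FPKM in that library, near the other Dnmt3a controls (48.4 and 44.1 FPKM) and above the Dnmt3a CKO libraries (30.6 to 38.8 FPKM). Xist read 46.2 to 49.4 FPKM, with Y-linked genes near 0, in the third library of every group except Dnmt1 CKO, whose libraries all had Y-linked transcripts and Xist at 1.69 to 1.85 FPKM. Myelin marker sums were 575 to 670 FPKM in Dnmt1 CKO against 1948 to 2267 FPKM in its controls, and their part in the results was not tested.

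Promoter sequence was available for 31 of the 36 genes, from RefSeq on GRCm38.p6, as windows from 250 bases before to 50 bases after the start. Tex15, Rnf17, Tex11, Nxf3 and Piwil2 had no entry. The median window held 20 CpG dinucleotides, with a ratio of observed to expected CpG of 0.733 and a GC share of 60%, against 7 CpG, 0.389 and 52.7% over all 27025 promoters. In 23 of the 31, or 74.2%, the ratio was at least 0.6 and the GC share at least 50%, as in 34.1% of all promoters. The E2F6 motif, TCCCGC or GCGGGA on the other strand, stood in 14 of the 31 windows (45.2%) and in 20% of all promoters. The E-box CACGTG, which MGA and MAX bind and which reads the same on both strands, stood in 14 windows (45.2%) and in 7.24% of all promoters, and 7 windows held both motifs (22.6%, against 2.05%). These are matches of letters and not shown to be bound.

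The stretches below lie before the start of the genes on which the results turn, cut where an annotated exon of the gene begins, with each CpG in capitals. Tex101, Mov10l1, Dpep3, Fkbp6 and Tuba3a are shown for their values in Dnmt1 CKO, while Tex19.1 and Stk31 were chosen for display after their values were seen, the former for the difference between the lines and the latter as a CpG-rich promoter whose gene was not higher in Dnmt1 CKO.
Tex101: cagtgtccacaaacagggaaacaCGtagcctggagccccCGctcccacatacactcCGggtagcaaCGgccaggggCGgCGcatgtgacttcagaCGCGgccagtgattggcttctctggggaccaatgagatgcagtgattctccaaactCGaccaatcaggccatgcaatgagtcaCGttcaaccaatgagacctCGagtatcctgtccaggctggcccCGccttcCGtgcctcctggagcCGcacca
Mov10l1: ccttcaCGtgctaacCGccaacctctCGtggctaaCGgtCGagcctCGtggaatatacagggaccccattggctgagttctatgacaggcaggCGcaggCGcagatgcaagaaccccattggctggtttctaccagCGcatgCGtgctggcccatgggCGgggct
Dpep3: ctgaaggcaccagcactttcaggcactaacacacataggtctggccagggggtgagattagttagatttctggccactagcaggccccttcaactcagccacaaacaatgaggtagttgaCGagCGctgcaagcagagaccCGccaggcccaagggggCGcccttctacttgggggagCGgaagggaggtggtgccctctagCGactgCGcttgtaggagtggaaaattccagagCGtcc
Fkbp6: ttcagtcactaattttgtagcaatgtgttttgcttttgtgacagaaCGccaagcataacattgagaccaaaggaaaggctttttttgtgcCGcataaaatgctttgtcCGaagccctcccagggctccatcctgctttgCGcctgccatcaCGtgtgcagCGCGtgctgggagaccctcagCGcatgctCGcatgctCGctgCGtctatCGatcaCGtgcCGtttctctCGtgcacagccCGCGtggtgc
Tuba3a: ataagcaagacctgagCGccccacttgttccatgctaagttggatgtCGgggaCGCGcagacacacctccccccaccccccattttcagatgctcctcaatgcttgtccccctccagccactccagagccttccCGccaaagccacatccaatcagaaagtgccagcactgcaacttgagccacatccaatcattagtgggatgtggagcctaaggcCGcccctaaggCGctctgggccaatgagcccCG
Tex19.1: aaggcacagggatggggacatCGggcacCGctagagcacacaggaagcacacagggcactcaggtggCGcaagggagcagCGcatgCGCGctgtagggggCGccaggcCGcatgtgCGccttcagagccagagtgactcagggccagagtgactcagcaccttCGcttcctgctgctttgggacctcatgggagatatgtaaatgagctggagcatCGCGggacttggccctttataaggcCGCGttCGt
Stk31: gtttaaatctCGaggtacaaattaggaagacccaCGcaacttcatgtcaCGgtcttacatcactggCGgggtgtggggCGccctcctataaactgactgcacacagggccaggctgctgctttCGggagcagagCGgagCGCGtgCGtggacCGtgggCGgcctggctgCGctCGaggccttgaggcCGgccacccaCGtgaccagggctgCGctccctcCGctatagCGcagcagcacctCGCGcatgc
The stretches span chr7:24672051-24672300 (minus strand) for Tex101, chr15:88982744-88982908 (plus strand) for Mov10l1, chr8:105979430-105979669 (minus strand) for Dpep3, chr5:135350045-135350294 (minus strand) for Fkbp6, chr6:125286082-125286331 (minus strand) for Tuba3a, chr11:121145893-121146142 (plus strand) for Tex19.1 and chr6:49395289-49395538 (plus strand) for Stk31. They hold 14 CpG in the 250 bases of Tex101, 11 CpG in the 165 bases of Mov10l1, 8 CpG in the 240 bases of Dpep3, 17 CpG in the 250 bases of Fkbp6, 8 CpG in the 250 bases of Tuba3a, 15 CpG in the 250 bases of Tex19.1 and 21 CpG in the 250 bases of Stk31. An E-box stands once in the Mov10l1 and Stk31 windows and 2 times in that of Fkbp6, and the E2F6 motif once each in those of Tuba3a and Tex19.1. The windows of Tex101 and Dpep3 hold neither.

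In control cortex most of these genes were near the floor. Over the 6 controls, 21 of 36 had a mean under 0.1 FPKM and 28 under 0.5 FPKM, and the median of the 36 means was 0.0727 FPKM, against 1.69 FPKM over all rows, of which 40.5% were under 0.5 FPKM. Dpep3, Tex19.1 and Sycp1 were listed at 0 in all 6 controls. A mean of 1 FPKM or more was reached by 5 genes. Tdrkh, a mitochondrial tudor protein that holds PIWI proteins, was highest at 7.47 FPKM, followed by the testis bromodomain protein gene Brdt at 2.83 FPKM, the synaptonemal complex gene Syce2 at 1.62 FPKM, the recombination-associated histone reader gene Zcwpw1 at 1.41 FPKM and the RNA-binding translation factor gene Dazl at 1.22 FPKM. Some of these levels can include other genes, since the kit does not mark strand: 36.7% of the exonic bases of Tdrkh overlap other genes, chiefly Oaz3 on the opposite strand, and 52.2% of those of Sycp3 overlap chiefly Chpt1.

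**Figure D1:**
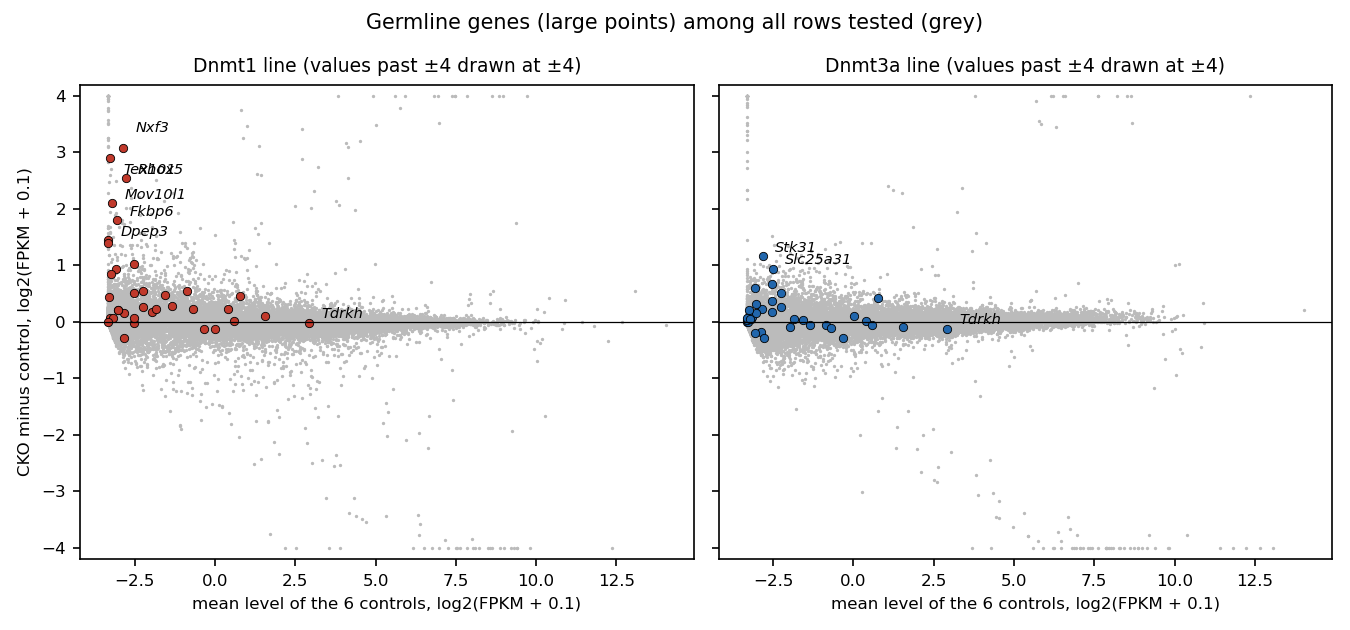
Difference between CKO and control on the log2(FPKM + 0.1) scale (vertical axis) against the mean level of the 6 controls on the same scale (horizontal axis), for the 36 germline genes (large points) and all 20653 rows tested (grey), in the Dnmt1 line (left) and the Dnmt3a line (right). The germline genes with large differences in the Dnmt1 line lie at the left edge, among rows near 0 in controls, and Tdrkh, the highest at 7.47 FPKM, lies near the zero line.

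In the Dnmt1 line the germline genes lay on the higher side. Of the 34 genes without Tex101 and Nxf3, 28 had a positive and 5 a negative difference, and the median was 0.232, against -0.0065 over all rows (all 36 genes gave 0.249). All rows were not matched to these genes for level, and a gene near 0 in controls has little room to fall. Past the false discovery rate of 10%, 4 of 34 rose, namely Dpep3, Fkbp6, Mov10l1 and Tuba3a, where 0.828% of all rows tested were called higher, and 0 fell, where 1.5% of all rows were called lower. At an unadjusted limma p under 0.05, 12 of 34 were higher and 0 lower, as were 5.15% and 8.37% of all rows. All 3 CKO values stood above all 3 control values in 14 of 34 genes, where 6.92% of all rows did so, and below them in 1 gene, Stk31, where 11% of all rows did so. The count called higher stood above the share over all rows, and the genes had been chosen with earlier results known, so no test was made of the count. One of those called, Dpep3, entered the rows tested only through its Dnmt1 CKO values.

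**Figure D2:**
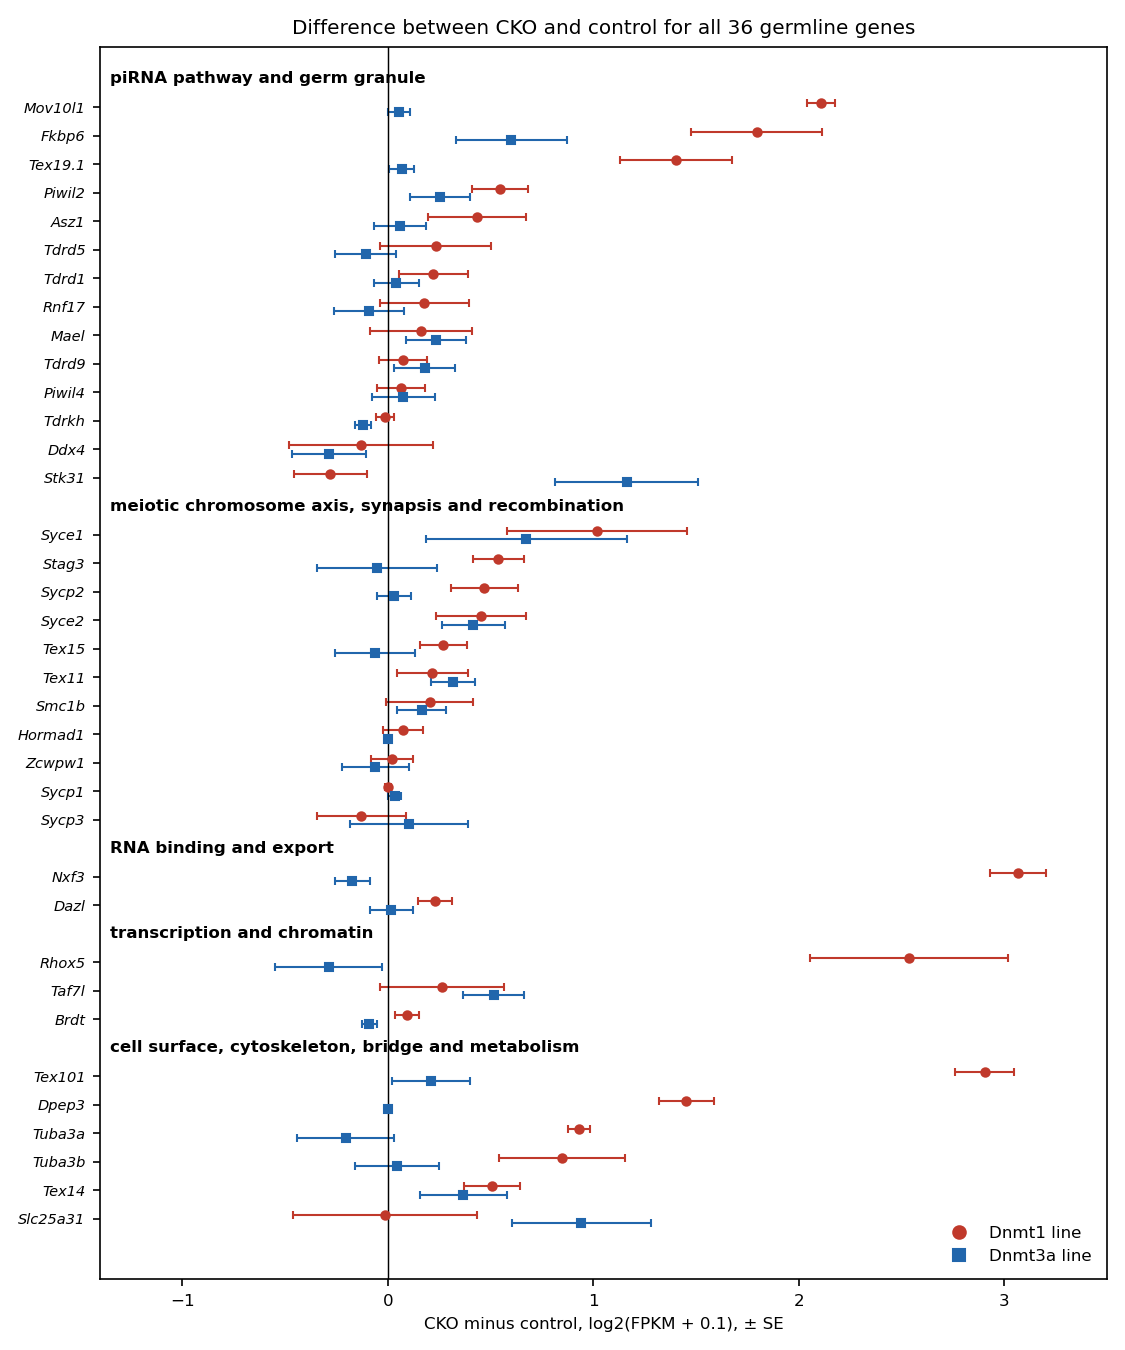
Difference between CKO and control in log2(FPKM + 0.1), with its standard error from limma, for the 36 germline genes grouped by role (3 mice per group), in the Dnmt1 line (red circles) and the Dnmt3a line (blue squares). Nxf3, Tex101, Rhox5, Mov10l1, Fkbp6, Dpep3 and Tex19.1 stand apart in the Dnmt1 line with differences from 1.40 to 3.07, and Stk31 has the largest difference in the Dnmt3a line, 1.16.

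Among the 14 piRNA and germ granule genes, 11 were higher and 3 lower in Dnmt1 CKO. Past the threshold 2 rose, where 0.828% of all rows tested were called higher. Mov10l1, which encodes an RNA helicase needed to make piRNA precursors into piRNAs (chr15:88982909-89055152, GRCm38, plus strand), read 0.0130, 0.0130 and 0.00596 FPKM in the Dnmt1 controls and 0.407, 0.382 and 0.342 FPKM in Dnmt1 CKO. In the Dnmt3a line it read 0.0131, 0.00647 and 0 FPKM in controls and 0.00606, 0.0126 and 0.0127 FPKM in CKO. Every Dnmt1 CKO library was high, every other library was near the floor, and the groups did not overlap. The difference was 2.11 ± 0.0675 (SE, limma, adjusted p = 0.00116). All 8 low values of this gene were within tolerance of whole multiples of 1 step, as was required before fragment numbers were given. With that step read as 1 fragment, its Dnmt1 CKO libraries held about 67, 63 and 61 fragments and the Dnmt1 controls 2, 2 and 1. Values past 40 steps were not checked against whole multiples.

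Fkbp6, an immunophilin of the piRNA pathway (chr5:135291704-135350044, minus strand), read 9.78e-05, 4.07e-05 and 0.0827 FPKM in Dnmt1 controls and 0.390, 0.388 and 0.219 FPKM in Dnmt1 CKO. The lowest CKO library stood above the highest control, which was control replicate 3. The difference was 1.79 ± 0.317 (SE), with a limma adjusted p of 0.0997, just inside the threshold. That call was lost without any one of 5 libraries: the adjusted p was 0.269, 0.238 and 0.163 without CKO replicate 1, 2 or 3, and 0.223 and 0.268 without control replicate 1 or 2. Tex19.1, a germline protein that restrains retrotransposons (chr11:121146143-121148319, plus strand), was listed at 0 in all 6 controls and read 0.135, 0.299 and 0.0971 FPKM in Dnmt1 CKO, or 9, 20 and 7 fragments. Its groups did not overlap, and the limma adjusted p was 0.122. Without CKO replicate 2, its highest library, it was 0.035, past the threshold, and with any other library of the line left out it was 0.148 to 0.301. The fitted difference of 1.40 ± 0.273 (SE) depends on the pseudocount because the controls of Tex19.1 are at 0. In the Dnmt3a CKO libraries it read 0.015, 0 and 0 FPKM, that is 1 fragment in 1 library.

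Piwil2, one of the PIWI proteins that carry piRNAs, read 0.138, 0.0744 and 0.127 FPKM in Dnmt1 controls and 0.204, 0.228 and 0.193 FPKM in CKO, so its groups did not overlap, but its difference of 0.54 missed the threshold (limma adjusted p = 0.192). Stk31, a tudor-domain kinase of germ cells, was the exception in direction: it read 0.0246, 0.0903 and 0.0301 FPKM in Dnmt1 controls and 0.0231, 0.0230 and 0.0142 FPKM in CKO. These groups were separate by a narrow gap and the difference of -0.28 did not pass (limma adjusted p = 0.586). The remaining genes of this role overlapped between the Dnmt1 groups. The highest were Tdrkh, at 7.26, 7.56 and 7.45 FPKM in controls and 7.69, 7.48 and 6.92 FPKM in CKO, and the germ cell helicase gene Ddx4, with control values of 0.423 to 0.799 FPKM and CKO values of 0.309 to 0.766 FPKM. The others were Asz1, Mael, Piwil4, Rnf17, Tdrd1, Tdrd5 and Tdrd9, with differences from 0.064 (Piwil4) to 0.43 (Asz1), none of which passed.

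**Figure D3:**
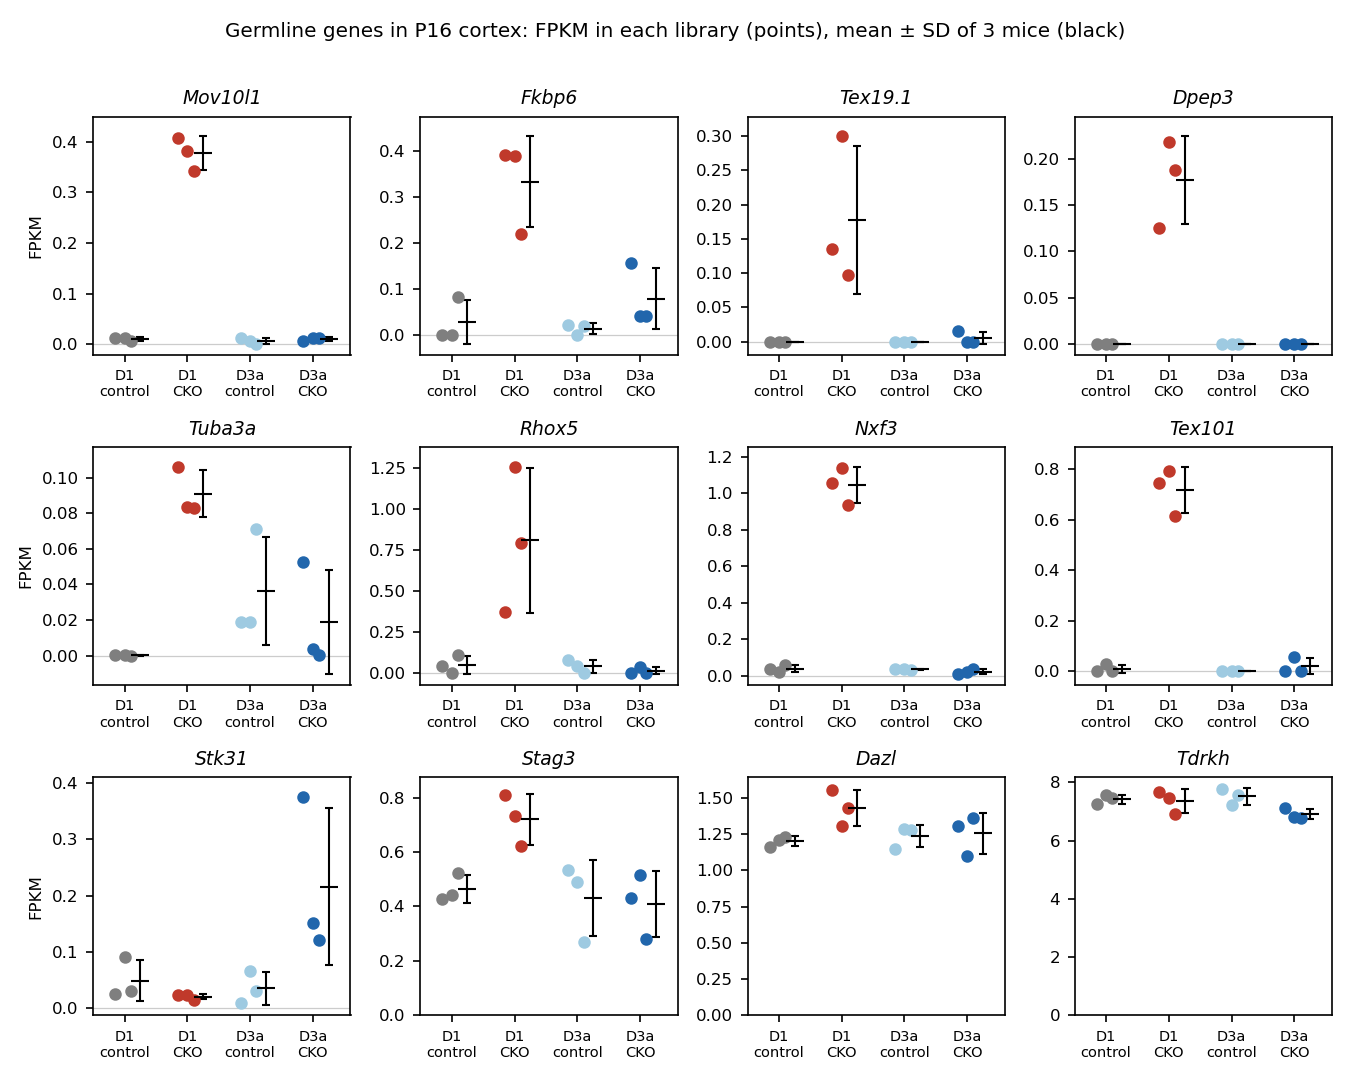
FPKM (vertical axes, each from its own scale that includes 0) of 12 germline genes in each library, by group, with the mean and SD of 3 mice in black (D1, Dnmt1 line; D3a, Dnmt3a line). Mov10l1, Fkbp6, Tex19.1, Dpep3, Tuba3a, Rhox5, Nxf3 and Tex101 are highest in all 3 Dnmt1 CKO libraries, Stk31 is highest in the 3 Dnmt3a CKO libraries, and Tdrkh is close to level between 6.79 and 7.79 FPKM.

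The 11 genes of the meiotic chromosome axis, synapsis and recombination had a median difference of 0.22 in the Dnmt1 line, where 9 were higher and 1 lower. None passed the limma threshold, and 2 were higher at an unadjusted p under 0.05, as were 5.15% of all rows. Stag3, the meiotic cohesin subunit (chr5:138280240-138312393, plus strand), read 0.429, 0.441 and 0.524 FPKM in Dnmt1 controls and 0.809, 0.731 and 0.623 FPKM in CKO, a difference of 0.54 ± 0.124 (SE, limma adjusted p = 0.163). Sycp2, which builds the lateral element of the synaptonemal complex, read 0.215, 0.160 and 0.294 FPKM in controls and 0.321, 0.346 and 0.356 FPKM in CKO, a difference of 0.47 ± 0.164 (SE, limma adjusted p = 0.32). In both, each CKO library exceeded each control. Syce1, a central element protein, also had separate groups, with 0.0778, 0.0778 and 0.0714 FPKM in controls and 0.328, 0.472 and 0.0842 FPKM in CKO, but CKO replicate 3 lay just above the controls and the difference of 1.02 had a limma adjusted p of 0.418. Without that library the difference was 1.49 and passed the threshold (limma adjusted p = 0.0603). With any other library of the line left out, the limma adjusted p of Syce1 was 0.524 to 0.656. Its low values read as 4, 4 and 4 fragments in controls and 18, 26 and 5 in CKO.

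Syce2, the highest of this role, read 2.15, 1.34 and 1.81 FPKM in Dnmt1 controls and 2.95, 2.31 and 2.06 FPKM in CKO, with groups that overlapped (difference 0.45, limma adjusted p = 0.458). Zcwpw1 read 1.32 to 1.64 FPKM in controls and 1.37 to 1.57 FPKM in CKO. Sycp1, which forms the transverse filaments of the synaptonemal complex, was listed at 0 in 11 of 12 libraries, and Hormad1 in 9 of 12. Smc1b, Sycp3, Tex11 and Tex15 overlapped between the groups, with differences from -0.13 (Sycp3) to 0.27 (Tex15).

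The RNA-binding and export genes were Dazl and Nxf3. Dazl, which stands on chromosome 17 and binds germ cell transcripts to promote their translation, read 1.16, 1.21 and 1.23 FPKM in Dnmt1 controls and 1.56, 1.31 and 1.43 FPKM in CKO. The CKO values were all above the controls by a small margin, and the difference of 0.23 ± 0.0823 (SE) had an adjusted p of 0.327. Nxf3, an X-linked mRNA export factor of the testis (chrX:136072099-136085255, minus strand), was one of the genes chosen for its Dnmt1 CKO values, which were 1.06, 1.14 and 0.939 FPKM against 0.0359, 0.0179 and 0.0576 FPKM in controls. Those values correspond to about 126, 136 and 121 fragments against 4, 2 and 7, and the difference was 3.07. In the Dnmt3a line, which did not choose it, Nxf3 read 0.0363, 0.0358 and 0.0332 FPKM in controls and 0.00838, 0.0173 and 0.0350 FPKM in CKO. The Dnmt3a groups overlapped, at 1 to 4 fragments in every library (difference -0.17, limma adjusted p = 0.709).

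Of the transcription and chromatin genes, Rhox5 showed the widest spread. Rhox5, an X-linked homeobox gene of the reproductive tract (chrX:37804842-37808876, plus strand), read 0.0397, 0 and 0.109 FPKM in Dnmt1 controls and 0.372, 1.26 and 0.793 FPKM in CKO. All CKO libraries were above all controls, but they differed among themselves more than 3 times, at 10, 34 and 23 fragments, and the difference of 2.54 ± 0.482 (SE) missed the threshold (limma adjusted p = 0.116). Brdt, a bromodomain reader of acetylated histones in spermatogenesis, read 2.68, 2.70 and 2.47 FPKM in Dnmt1 controls and 2.70, 2.76 and 2.93 FPKM in CKO, a gap far smaller than the spread within either group (difference 0.10, limma adjusted p = 0.564). Taf7l, an X-linked germ cell form of a TFIID subunit, overlapped between the groups, at 0.0856 to 0.214 FPKM in controls and 0.0987 to 0.253 FPKM in CKO. Dnmt1 control replicate 3 was the only Dnmt1-line library with Xist at the level of the Xist-high group, so in this line sex was not balanced for the X-linked genes Nxf3, Rhox5, Taf7l and Tex11. Without that library the difference of Rhox5 was 2.81 and that of Nxf3 3.17, and the 4 genes called in this line stayed called.

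In the group of cell surface, cytoskeletal, bridge and metabolic genes, Dpep3 and Tuba3a rose. Dpep3, a membrane dipeptidase family member that pairs with TEX101 on sperm (chr8:105973513-105979429, minus strand), was listed at 0 in all 9 other libraries and read 0.125, 0.217 and 0.187 FPKM in Dnmt1 CKO. The limma adjusted p was 0.0175, and the fitted difference of 1.45 ± 0.134 (SE) depends on the pseudocount since the controls are at 0. Dpep3 entered the rows tested only through its Dnmt1 CKO values, so its call is a description. Tex101, a glycoprotein of the germ cell surface (chr7:24668007-24676675, minus strand) and the other gene chosen for this contrast, read 0, 0.0284 and 0 FPKM in Dnmt1 controls and 0.744, 0.794 and 0.615 FPKM in CKO, or 28, 30 and 25 fragments against at most 1. Outside that contrast, Tex101 was listed at 0 in all 3 Dnmt3a controls and in 2 Dnmt3a CKO libraries, with 2 fragments in the other.

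Tuba3a, a testis alpha-tubulin (chr6:125278274-125286042, minus strand), read 0.0001, 6.43e-05 and 0 FPKM in Dnmt1 controls and 0.106, 0.0837 and 0.0828 FPKM in CKO, a difference of 0.93 ± 0.0548 (SE, limma adjusted p = 0.00535). Its copy Tuba3b read 9.24e-05, 8.89e-05 and 0 FPKM in controls and 0.0198, 0.173 and 0.0784 FPKM in CKO (difference 0.85, limma adjusted p = 0.333). Both were higher in all 3 CKO libraries, but 35.3% of the 50-base words in Tuba3a transcripts recur in other genes, chiefly Tuba3b, so how the reads were divided between them is uncertain. In the Dnmt3a line Tuba3a read 0.0190, 0.0189 and 0.0713 FPKM in controls, so it was not near 0 in every control of the series. Tex14, which stabilises the bridges between germ cells, read 0.0556, 0.0936 and 0.0460 FPKM in Dnmt1 controls and 0.160, 0.113 and 0.128 FPKM in CKO, with separate groups and an adjusted p of 0.213. Slc25a31, a germ cell ADP/ATP carrier, overlapped between the Dnmt1 groups (difference -0.015).

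In the Dnmt3a line none of the 36 genes passed the limma threshold in either direction, where 0.0629% of all rows were called higher and 0.0194% lower. At an unadjusted p under 0.05, 5 of 36 were higher and 1 was lower, as were 4.28% and 3.13% of all rows. The median difference was 0.050, against 0.00032 over all rows. All 3 CKO values stood above all 3 controls in 6 genes, where 6.12% of all rows did so, and below them in 2 genes, Brdt and Tdrkh, where 5.06% of all rows did so. The 6 were Fkbp6, Slc25a31, Stk31, Syce2, Taf7l and Tex11.

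Stk31, named here after its values were seen, was the furthest of these. It read 0.0083, 0.0655 and 0.0303 FPKM in Dnmt3a controls and 0.376, 0.151 and 0.120 FPKM in Dnmt3a CKO, or 1, 8 and 4 fragments against 49, 19 and 15. CKO replicate 1 was the highest and all 3 CKO libraries exceeded the controls, with a difference of 1.16 ± 0.347 (SE, limma adjusted p = 0.653). Slc25a31 read 0.0656, 0.103 and 0 FPKM in controls and 0.242, 0.113 and 0.228 FPKM in CKO, a difference of 0.94 (limma adjusted p = 0.66). Fkbp6 read 0.0215, 6.98e-05 and 0.0193 FPKM in controls and 0.155, 0.0403 and 0.0414 FPKM in CKO, a difference of 0.60 (limma adjusted p = 0.692). Each of these genes was higher in all 3 CKO libraries, at levels between 0.0403 and 0.376 FPKM. In the same libraries the sum of the choroid plexus markers ran from 3.02 to 419 FPKM in CKO and from 6.07 to 124 FPKM in controls, and its part in these values was not tested.

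The other genes with separate groups in this line were at lower contrast. Syce2 read 1.79, 1.25 and 1.36 FPKM in controls and 2.18, 1.89 and 1.86 FPKM in CKO, a difference of 0.42, while Taf7l and the X-linked recombination gene Tex11 differed by 0.52 and 0.32. Tdrkh fell short of the threshold in the other direction, at 7.79, 7.22 and 7.56 FPKM in controls and 7.11, 6.81 and 6.79 FPKM in CKO (difference -0.12, limma adjusted p = 0.656). Brdt read 2.98, 3.10 and 3.08 FPKM in controls and 2.83, 2.89 and 2.87 FPKM in CKO. Without the library labelled Dnmt3a control replicate 2, which had Dnmt3a at the CKO level, 0 of 36 genes were called, the median difference was 0.074 and that of Stk31 was 1.32 (limma adjusted p = 0.631).

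The effects in the lines were compared directly in 1 model of the 12 libraries, as the Dnmt1 difference minus the Dnmt3a difference. Of the 34 genes, 5 had a larger difference in the Dnmt1 line past 10%, where 0.465% of all rows did so, and 0 a smaller one, where 1.2% of all rows did so. At an unadjusted limma p under 0.05, 7 were larger and 1, Stk31, was smaller, as were 3.52% and 6.25% of all rows. The 5 were Mov10l1 (2.05 ± 0.108, limma adjusted p = 8.72e-06), Dpep3 (1.45 ± 0.149, adjusted p = 0.000892), Rhox5 (2.83 ± 0.557, adjusted p = 0.0438), Tex19.1 (1.34 ± 0.289, adjusted p = 0.0697) and Tuba3a (1.13 ± 0.25, adjusted p = 0.0733), each with its SE. For Fkbp6 the difference between the lines was 1.19 ± 0.424 (SE, limma adjusted p = 0.35), so its change was not shown to differ between them. Stk31 had -1.44 ± 0.396 (SE, limma adjusted p = 0.18), with all Dnmt1 CKO libraries under and all Dnmt3a CKO libraries over their controls. Mov10l1 and Dpep3 stayed past the threshold whichever library was left out, and the number called ranged from 2 to 4. Dpep3 entered the rows tested only through its Dnmt1 CKO values, so its call is a description. Rhox5 fell out without Dnmt1 control replicate 1 or 2, Dnmt1 CKO replicate 3, Dnmt3a control replicate 1 or 2, or Dnmt3a CKO replicate 1 or 3 (limma adjusted p from 0.106 to 0.121). Tex19.1 fell out without any library but Dnmt1 CKO replicate 2 or 3 (limma adjusted p from 0.11 to 0.171), and Tuba3a without any library but Dnmt3a CKO replicate 1 or the library labelled Dnmt3a control replicate 2 (limma adjusted p from 0.101 to 0.187). As a description, Nxf3 had 3.24 and Tex101 2.69.

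The promoter features were set beside the Dnmt1 results. The median ratio of observed to expected CpG was 0.674 over 13 of the 14 genes with separate and higher Dnmt1 CKO values (Piwil2 had no window, and Tex101 and Nxf3 were left out as chosen on these values) and 0.826 over the other 17. The E2F6 motif stood in 5 of the 13 (38.5%) and 9 of the 17 (52.9%), and the E-box in 4 (30.8%) and 10 (58.8%). Dpep3 and Rhox5, both with large differences, had ratios of 0.462 and 0.363, whereas Fkbp6 had 0.926. The RefSeq window of Rhox5 starts at position 37754358 of the X chromosome, before the start of the gene model used here at 37804842. These values describe the sequence, and no test was made of them.

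**Figure D4:**
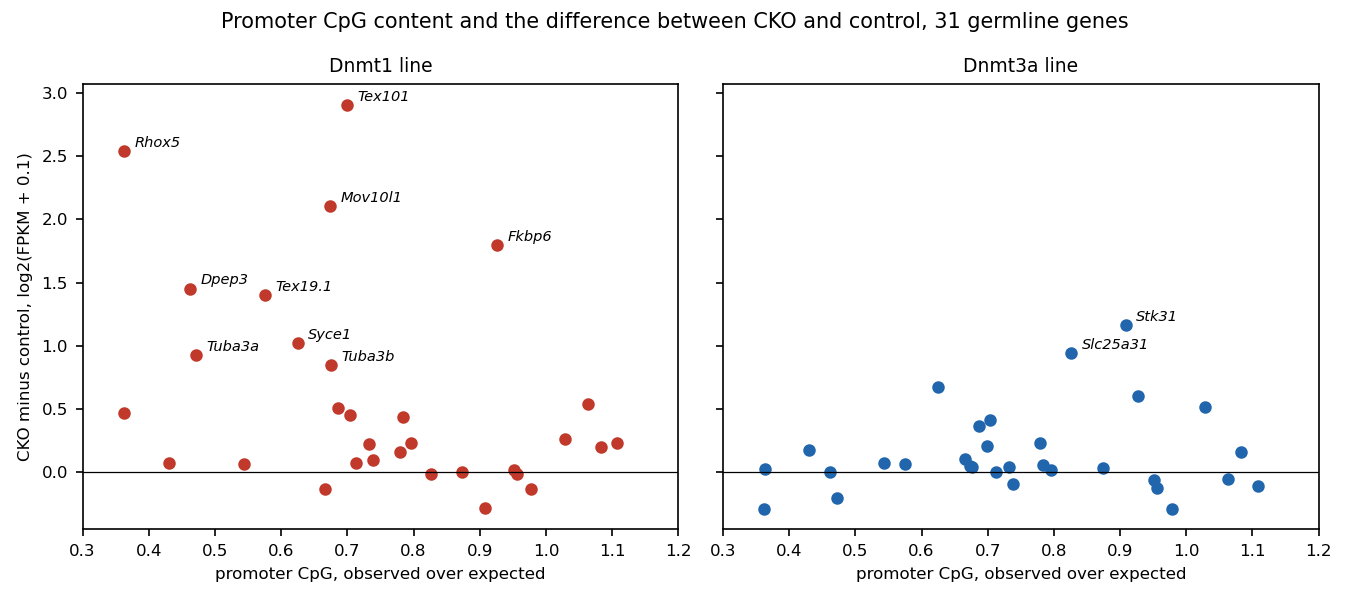
Difference between CKO and control in log2(FPKM + 0.1) (vertical axis) against the ratio of observed to expected CpG in the 300-base promoter window (horizontal axis) for the 31 germline genes with a RefSeq promoter, in the Dnmt1 line (left) and the Dnmt3a line (right). In the Dnmt1 line the large differences lie at ratios from 0.363 (Rhox5) to 0.926 (Fkbp6), and genes with ratios above 1 all lie under 0.6 on the vertical axis.

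Other germline genes were taken from lists chosen with earlier results known, and the lists were not tested against each other. In the Dnmt1 line 0.828% of all rows were called higher and 1.5% lower, and 5.15% and 8.37% were so at an unadjusted limma p under 0.05. Of 21 further meiosis genes tested, 12 were higher and 9 lower in Dnmt1 CKO and 1 was called, Hsf2bp, a recombination gene, at 0.236, 0.245 and 0.231 FPKM against 0.141, 0.164 and 0.170 FPKM in controls (difference 0.38, limma adjusted p = 0.0857). In the Dnmt3a line Hsf2bp read 0.340, 0.105 and 0.317 FPKM in CKO and 0.142, 0.153 and 0.0864 FPKM in controls, so high values were not limited to Dnmt1 CKO. Of 17 further piRNA genes, 10 were higher, 7 lower and none called, with 2 higher and 1 lower at an unadjusted limma p under 0.05. Of 19 further genes tested from a list made up mainly of X-linked germline genes, 15 were higher, 3 lower and 2 called. For the X-linked ones, sex was not balanced in this line. These were Tex13, at 0.448, 0.290 and 0.280 FPKM against 0.116, 0.116 and 0.0949 FPKM in controls (difference 1.05, limma adjusted p = 0.0719), and Mageb4. Mageb4 was listed at 0 in all 9 other libraries and read 0.0634, 0.0562 and 0.0293 FPKM in Dnmt1 CKO (limma adjusted p = 0.0823). It entered the rows tested only through Dnmt1 CKO, so its call is a description. Of 16 spermatid genes, 8 were higher and 8 lower, with none called and 0 at an unadjusted limma p under 0.05. None of these lists had a gene called in the Dnmt3a line. At an unadjusted limma p under 0.05 the only one there was a spermatid gene that was lower, where 4.28% of all rows were higher and 3.13% lower.

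Genes listed as machinery that silences the germline programme did not move in step. Of the 18 listed, which include Dnmt1 itself, 7 were higher and 11 lower in Dnmt1 CKO, with none called. At an unadjusted limma p under 0.05, 1 was higher and 1 lower, where 5.15% and 8.37% of all rows were. The lower was Dnmt1, the deleted gene (difference -0.27, limma adjusted p = 0.354). The higher was Zbtb16 (difference 0.31, limma adjusted p = 0.307), a listed gene whose part in this silencing is not shown here. The difference of E2f6, the repressor that binds the motif searched above, was -0.099 (limma adjusted p = 0.507), and that of Dnmt3b, the other de novo methyltransferase, was 0.15 (adjusted p = 0.697). The germ cell markers Ddx4, Dazl, Prm1, Tnp1, Nanos3 and Piwil1, whose FPKM summed to 2.58 to 3.56 in Dnmt1 CKO and 2.42 to 2.87 in its controls, had 5 genes tested and none called, with 1 higher and 1 lower at an unadjusted limma p under 0.05. In the same libraries all 10 myelin markers were called lower. All 8 oligodendrocyte progenitor markers had negative differences, from -1.19 to -0.00062, with 4 called and 5 at an unadjusted limma p under 0.05. The -1.19 was that of Olig1, the gene that holds cre in every CKO mouse. Olig1 was also lower in Dnmt3a CKO, at 30.6 to 38.8 FPKM against 44.1 to 49.8 FPKM in controls. For it, a change in progenitors and the cre allele cannot be told apart. The others called were Pdgfra (-0.30), Gpr17 (-0.56) and Sox10 (-0.81). No neuron, microglia, endothelium, ependyma or choroid plexus marker was called. Of 5 astrocyte markers 3 were higher and 2 lower, with Gfap called (0.45) and both lower ones at an unadjusted limma p under 0.05. All 4 endothelium markers had lower values, 2 of them at an unadjusted limma p under 0.05, and summed to 46.6 to 54.5 FPKM against 57.0 to 63.1 FPKM in controls. The part of these marker differences in the germline values was not tested.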

How the data were processed

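The authors sequenced libraries from the TruSeq RNA kit, which does not mark strand, on an Illumina instrument, and deposited 1 table of FPKM values per gene. Cufflinks and mm10 (GRCm38) are named in the submitters' processing notes, with no version given in the sources used here. Of 23850 rows, 302 exact duplicates were removed. Groups and replicate numbers came from the sample titles.

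The 36 members and all other gene lists were chosen with earlier results of these data known. On log2(FPKM + 0.1), CKO and control libraries of each line were compared with limma 3.58.1 in R 4.3.3 (lmFit, then eBayes with a mean-variance trend), and the difference between the lines was a contrast in 1 model of all 12 libraries. p-values were two-sided and adjusted by Benjamini-Hochberg over 20653 rows. The study's own test needs reads, so a test on the log scale stood in for it. The script was tested on simulated data. Libraries from 3 separate mice per group limit the precision, and read depth is not given in the table. For 14 members the low values were whole multiples of 1 step (within 0.05 of a step, plus 0.003 for each step counted), which gave fragment numbers. Steps over low rows of the whole table put the relative depth of the libraries at 0.856 to 1. Relative depth was 0.865, 0.865 and 0.943 in the Dnmt1 controls and 0.924, 0.927 and 1 in Dnmt1 CKO. Fragment numbers were given only where every value under 40 steps met this, and higher values were not checked. Within each library, 120 to 136 rows were at 0 although their mean over all libraries was above 5 FPKM, so an exact 0 can be a failed estimate.

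Values are given by library for every member called in a comparison, for Tex101 and Nxf3, for the 3 highest in controls, and for members whose Dnmt1 groups did not overlap and whose mean exceeded 0.05 FPKM in either group. Gene models were those of GENCODE M21 on GRCm38, and promoter windows those of RefSeq, 1 per gene. Alternatives were the pseudocount, level filters, the variance model, library scaling, rows per symbol, a replicate block, 1 model for all libraries, an Xist covariate, a 5% rate and leaving out each library.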

Additional observations from a re-analysis of the deposited data

Results flagged for a closer look

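Results in which the effects in the Dnmt1 and Dnmt3a lines differed by a test of the difference itself (limma, 10% false discovery rate) concerned 5 germline genes. The Dnmt1 difference minus the Dnmt3a difference was 2.054 for Mov10l1, made up of 2.107 and 0.053 in the lines, and 1.452 for Dpep3, made up of 1.452 and 0. It was 2.825 for Rhox5, from 2.538 and -0.288, with Rhox5 at 0.372 to 1.26 FPKM in the Dnmt1 CKO libraries. For Tex19.1 it was 1.336, from 1.403 and 0.067, and for Tuba3a it was 1.135, from 0.93 and -0.205. Dpep3 was listed at 0 in all 9 libraries other than Dnmt1 CKO, so it entered the rows tested only through that group and its call is a description. The values for Dpep3 and Tex19.1 depend on the pseudocount.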

How the results depend on the processing

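Over all 36 germline genes, Tex101 and Nxf3 included, the median difference was 0.249 in the Dnmt1 line and 0.0499 in the Dnmt3a line, and with a pseudocount of 0.01 these were 0.508 and 0.173. With a pseudocount of 1 the Dnmt1 median was 0.0781. Keeping genes whose mean over all libraries reached 0.5 FPKM left 9 germline genes, with medians of 0.0955 in the Dnmt1 line and -0.0612 in the Dnmt3a line, of which 0 were called in the Dnmt1 line (2 at an unadjusted limma p under 0.05) and 0 in the difference between the lines (1 unadjusted). Stag3 was among the 9 only through Dnmt1 CKO, at a mean of 0.721 FPKM there against 0.448 FPKM over the 6 controls. The unadjusted count in the Dnmt1 line is therefore a description. Of all 14115 rows kept by that filter, 444 were called in the Dnmt1 line and 300 in the difference between the lines. For the difference between the lines, 3 genes were called with a pseudocount of 1, 2 with a mean of at least 0.1 FPKM, 3 with the Xist level as a covariate and 3 at a 5% rate, against 5. In that order, these settings called 346 of 20653, 324 of 16405, 357 of 20653 and 243 of 20653 rows in either direction, against 343 of 20653. With the 0.1 FPKM filter the 2 were Mov10l1 and Rhox5, which reached that mean only through Dnmt1 CKO. Their means were 0.377 and 0.808 FPKM there and 0.00859 and 0.0448 FPKM over the 6 controls, so that filter gives their calls no support. Xist was also higher in Dnmt1 CKO libraries with Y-linked transcripts (1.69 to 1.85 FPKM) than in such controls (0.0306 and 0.0453 FPKM), so that covariate follows genotype as well as sex. Leaving out each library gave 2 to 4 calls in the difference between the lines, where 243 to 380 of 20653 rows were called, and 3 to 4 in the Dnmt1 line.

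Samples of the same replicate number did not deviate together (correlations of -0.0592, 0.039 and -0.0267 in the Dnmt1 line and 0.0191, -0.0792 and -0.011 in the Dnmt3a line), so the numbers were not taken as pairs. The limma fit with a replicate block called 0 germline genes in the Dnmt1 line (10 at an unadjusted p under 0.05, against 12 without it), where it called 0 of all 20653 rows against 480. In the difference between the lines it called 2 germline genes and 219 of all rows. Over all rows the Dnmt1 line gave 212 to 362 calls when each library was left out, 721 with all 12 libraries in 1 model and 287 at a 5% rate. The Dnmt3a line gave 17 calls, with 1 to 49 under the alternatives, and 0 germline genes were called in it under each of them (2 to 7 at an unadjusted limma p under 0.05).

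In the Dnmt1 line Mov10l1 was past the threshold in 17 of 18 alternatives, Dpep3 and Tuba3a in 16 of 17 each and Fkbp6 in 9 of 18, and no gene followed through the alternatives changed the sign of its difference. For Mov10l1 and Fkbp6 these include the filter at a mean of 0.1 FPKM, which both passed only through their Dnmt1 CKO values. Dpep3 was above 0 only in Dnmt1 CKO, so its calls are a description under every alternative. Rhox5 and Tex19.1, not called in that line, were called with the robust variance setting (limma adjusted p of 0.0414 and 0.0527) and with all 12 libraries in 1 model (0.00685 and 0.00447). Depth limits the low values: 1 fragment corresponded to 0.00649 FPKM for Mov10l1 and 0.0397 FPKM for Rhox5 in Dnmt1 control replicate 1.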
